A study of Oryza sativa with 10 samples.

Results

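Capture of G-quadruplex DNA with the small molecule BioTASQ in rice seedlings, labelled vivo, gave 53140 called peaks, of 132054 in the 3 distinct peak lists of the series. They were found as all rows of the list deposited for this capture, with rows under one peak name joined into 1 called peak (57500 rows). The capture group, BioTASQ_vivo, had 2 libraries captured with BioTASQ, and its controls were 1 library with biotin alone and 1 input library of the same vivo set. All were genomic DNA of the japonica rice cultivar Nipponbare, from seedlings at an age of 2 weeks that had been cross-linked with 1% formaldehyde for 10 min. Per the labels' protocols, 30 µl of 1 mM BioTASQ was left overnight at 4 °C with fragmented chromatin in a buffer with 150 mM KCl, and bound DNA was pulled down with streptavidin beads. The labels give no genotype other than the cultivar and say only vivo or vitro, and the protocol text is the same for both. The deposited list is 1 for the group and none per library, so no value below has an error between replicates. A seedling mixes cells of several organs, and the list does not separate them.

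G-quadruplexes are four-stranded structures of guanine-rich DNA or RNA, formed by stacking planar rings of 4 guanines (G-quartets) around potassium or sodium ions. TASQs (template-assembled synthetic G-quartets) carry guanines that can fold into a synthetic quartet and stack on the outer quartet of a G-quadruplex, and BioTASQ also carries a biotin, which streptavidin holds. A peak is a stretch where the captured library held more fragments than its control, so it marks captured DNA and not a folded structure as such. The sequence and genes under the peaks were not analysed here, and coordinates, counted from 1, are those of the deposited list, whose genome build the sources used here do not give.

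The spread given below is the SD over the 12 chromosomes. Chromosomes are parts of the same libraries, so this SD is no error between plants, and no test was made. Read depth per library was not analysed here. Depth was read from 2 measures. The pileup counts the fragments stacked at a summit, and the control level is the number the peak caller expected at that point from the control. Both were solved from the authors' deposited fold enrichment and −log10 p. Whole pileups came out for 53139 of 53140 peaks. The median pileup was 75 fragments and its 5th and 95th percentiles were 51 and 111, and the median control level was 16.2 fragments. In 21503 peaks (40.5%) the control level was at its lowest value, 15.7 fragments, the level the caller applies where no local excess in the control raises it.

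Most BioTASQ in vivo peaks were short and single. The median span, from the first to the last base of a called peak, was 361 bp, and 35887 peaks (67.5%) spanned under 500 bp. The median hardly varied between chromosomes, from 353 bp on chromosomes 8 and 12 to 371 bp on chromosome 10. At the other end 474 peaks (0.892%) spanned more than 2 kb, and the longest 5816 bp. The rows together covered 24.7 Mb, or 6.61% of the 373 Mb between the first base and the last peak end of each chromosome.

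A minority of the called peaks came in pieces. In 3795 peaks (7.14%) several rows carried one name and the same fold enrichment, most often 2 rows (3365 peaks), then 3 rows (330), and at most 7 rows (1 peak). The pieces covered 73.4% of the span of these peaks. The stretches between pieces had a median of 239 bp and were never shorter than 156 bp, and only 353 of all rows (0.614%) were shorter than that. The shortest distance between neighbouring called peaks was nearly the same, 157 bp. In 7932 called peaks (14.9%) the deposited summit fell beyond the end of the span, so these spans are shorter than the peaks as called. Positions below are therefore taken from the edges and the midpoint of a span, not from its summit, except in 1 alternative for spacing.

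Peaks in several rows were longer and stronger than peaks in 1 row. Their median span was 1138 bp (3795 peaks), against 340 bp for 49345 peaks of 1 row. Part of this difference follows from joining rows, since a joined span includes the stretches between its rows. The rows alone covered a median of 827 bp. The median fold enrichment was 4.30 for 1 row, 4.96 for 2, 5.43 for 3 and 5.80 for 4 or more rows. The median of peaks in several rows was the higher one on 12 of 12 chromosomes, with 4.87 to 5.14 against 4.24 to 4.32 for 1 row. Of the 474 peaks with a span of at least 2 kb, 416 (87.8%) were in several rows. Span and fold enrichment rose together over all 53140 peaks (Spearman rho 0.614). Both come from the same fragments.

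**Figure D1:**
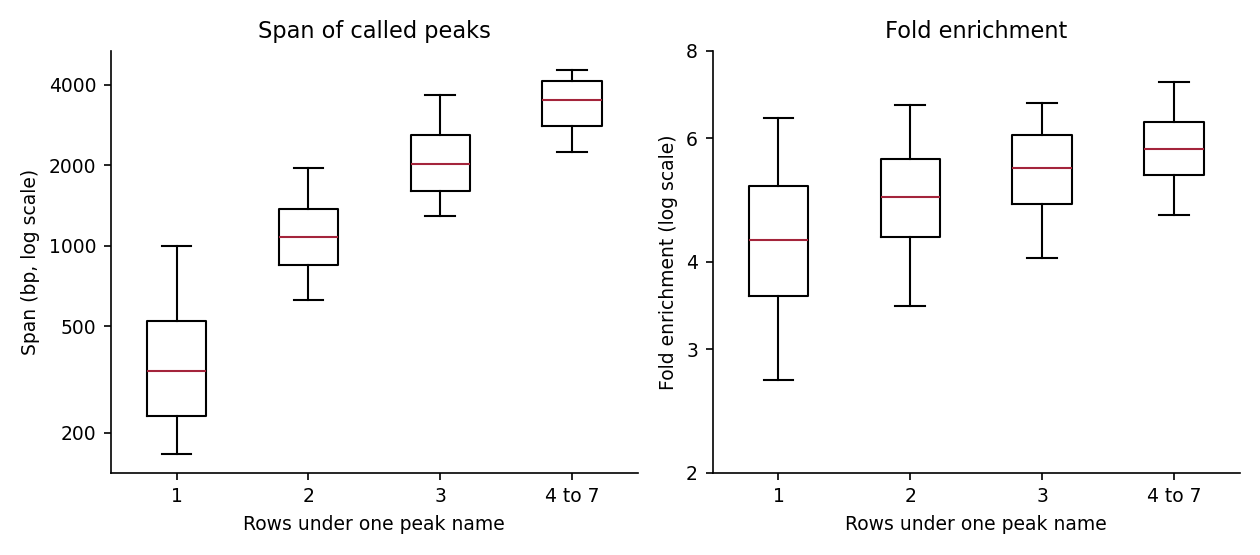
Span in bp and fold enrichment, both on log axes, of called peaks with 1, 2, 3 and 4 to 7 rows under one peak name. Boxes show quartiles, red lines medians and whiskers the 5th and 95th percentiles. The median fold enrichment was 4.30, 4.96, 5.43 and 5.80 in this order.

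The 5 longest called peaks were all in 4 or more pieces. The longest, on chromosome 1 at 7644066 to 7649881, was in 7 rows that covered 4271 bp, with a fold enrichment of 6.87. The next had spans of 4697 bp in 4 rows (chromosome 10, 18477179 to 18481875, fold enrichment 5.31) and 4613 bp in 5 rows (chromosome 5, 18149912 to 18154524, 5.97). On chromosome 10 at 13174665 to 13179231 a span of 4567 bp in 6 rows had 4.49, and on chromosome 2 at 10230531 to 10235094 a span of 4564 bp in 6 rows had 4.54. These values lay at or above the median of the list, 4.36, and far below its highest. All 5 touched BioCyTASQ in vitro peaks, and 1 of them, that on chromosome 1, also touched the list deposited for both BG4 and BioTASQ in vitro. Of the 100 peaks in 4 or more rows, 89.0% touched BioCyTASQ and 5.00% the other list, against 56.9% and 19.3% of all in vivo peaks. Overlap was counted over whole spans, and the median span of these 100 peaks was 3522 bp, against 361 bp for all. A longer span has more room to touch a peak. Both shares also rose with fold enrichment. From the lowest to the highest of 5 equal groups by fold enrichment, they were 34.5% and 78.0% for BioCyTASQ and 12.9% and 26.5% for the other list. The median fold enrichment was 5.97 in that highest group and 5.80 in these 100 peaks. The parts of span length and strength in these shares were not tested.

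Enrichment was moderate and narrow in range. The 5th, 50th and 95th percentiles of fold enrichment were 2.75, 4.36 and 6.45, and 29 peaks on 10 chromosomes reached 10. The medians of single chromosomes lay between 4.30 (chromosome 9) and 4.39 (chromosome 1). The strongest peak reached a fold enrichment of 16.01 (chromosome 8, 6944835 to 6945107), with a pileup of 373 fragments over a control level of 22.4. Next came chromosome 7 at 27299779 to 27300355 with 12.7, from 211 fragments over 15.7. Chromosome 6 at 18444738 to 18445692 had 12.4, from 259 over 20.04, and chromosome 4 at 11699667 to 11700064 had 12.3, from 230 over 17.7. The fifth, also on chromosome 4 at 11983463 to 11983786, had 12.1, from 202 over 15.7. Their pileups were all above the 95th percentile of the list, and 2 of these 5 had the lowest control level. Of the 29 peaks, 27 were in 1 row, about the share over the whole list (49345 of 53140 peaks). The median span over all 29 was 553 bp, against 361 bp in the list. Of the 29, 24 had no neighbour within 1 kb, where 72.3% of all called peaks had none.

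A few peaks stood on a very high control. The control level exceeded 50 fragments at 10 peaks on 6 chromosomes, a group chosen after its values were seen. The highest, 591 fragments under a pileup of 1681, was on chromosome 11 at 12164577 to 12164739, where the fold enrichment was 2.84. It was 37.6 times the lowest level of the list. The next were 121 fragments on chromosome 7 (13573545 to 13573832) and 107 on chromosome 12 (8543086 to 8543256), with fold enrichments of 2.52 and 1.56. Each of these 3 fold enrichments was below the median of the list. Of the 10, 7 lay on a BioCyTASQ in vitro peak (56.9% of all in vivo peaks did) and 6 on the list deposited for BG4 and BioTASQ in vitro (19.3% of all).

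Neighbouring peaks were a few kilobases apart. The median distance from the end of a called peak to the start of the next was 4062 bp and the mean 6531 bp, over 53128 distances. The medians of single chromosomes ran from 3850 bp on chromosome 4 to 4428 bp on chromosome 12. Distances of up to 0.5 kb made up 5.67% of all and those of 0.5 to 1 kb 9.98%. Those of 2 to 5 kb made up 27.6%, and 2948 were longer than 20 kb and together held 23.2% of the bases. The SD of the distances was 1.19 times their mean, where peaks falling independently at an even rate would give a ratio near 1. The ratio was 1.08 on chromosome 3, the lowest, and 1.41 on chromosome 11, the highest.

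**Figure D2:**
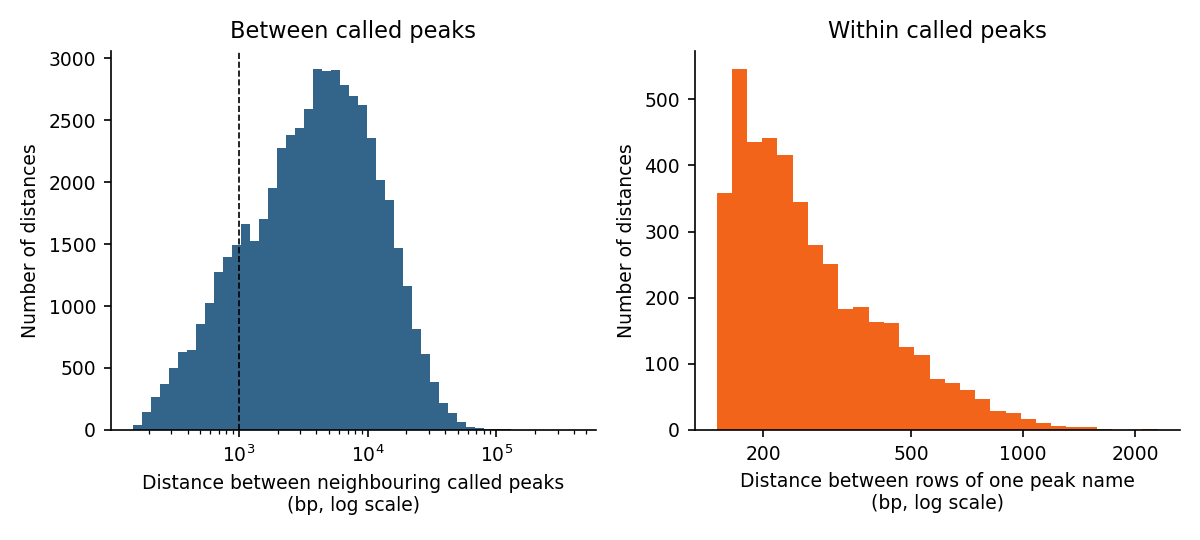
Distances between neighbouring called peaks (left, 53128 distances) and between rows of one peak name (right, 4360 distances), both on log axes in bp. The dashed line marks 1 kb, the distance used for clusters. Distances between peaks centred on a median of 4062 bp and began at 157 bp, and those within peaks began at 156 bp.

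Peaks drew together over 1 to 20 kb, weakly and on every chromosome. Counted from the midpoint of a peak, partners at 1 to 2 kb on the downstream side were 1.26 times as dense as the average of the list (179 against 142 per Mb). The ratio was 1.17 at 2 to 5 kb, 1.11 at 5 to 10 kb, 1.05 at 10 to 20 kb and 1.03 at 20 to 50 kb. Each of these 5 ratios was above 1 on 12 of 12 chromosomes. At 0.5 to 1 kb the ratio was 0.871, below 1 on each chromosome, and under 0.5 kb it was 0.0592. Peaks have a width and cannot overlap, and neighbours were never closer than 157 bp from edge to edge. Both limit how close midpoints can lie. In bins of 100 kb the list held 14.2 ± 4.77 peaks (SD over 3726 bins), and 2778 bins (74.6%) held 10 to 20. The variance of these counts was 1.60 times their mean, where independent and even placement gives 1. Over 10 kb bins the ratio was 1.05. Neighbouring 100 kb bins were weakly alike (Pearson r 0.154 over 3714 pairs of bins), and bins 1 Mb apart hardly at all (0.0498).

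Of the called peaks, 14739 (27.7%) had another within 1 kb. On single chromosomes the share ran from 25.6% on chromosome 2 to 29.8% on chromosome 4. Chains of such peaks made up 6426 clusters, of which 5141 were pairs and 129 held 5 or more peaks. Peaks in clusters had fold enrichments close to those of peaks alone. The median fold enrichment was 4.06 in clusters of 5 or more (732 peaks) and 4.36 for the 38401 peaks alone. In clusters of 3 or more it was 4.24, and on 1 of 12 chromosomes it was above that of peaks alone. The direction depended on the distance. With neighbours counted to 5 kb, peaks with a neighbour had a median of 4.36 and those without 4.24, and with 1 kb 4.30 and 4.36.

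Larger clusters lay more often at the lowest control level. The control level was at its lowest value in 77.5% of peaks in clusters of 5 or more, 72.2% in clusters of 4, 55.7% in clusters of 3 and 44.0% in pairs, against 36.9% of peaks alone. In clusters of 3 or more the median control level was at most 15.8 fragments on each chromosome, against 16.1 to 16.5 for peaks alone. The part of the control level in the clustering was not tested.

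The larger the cluster, the more of its peaks were shared with BioCyTASQ in vitro and the fewer with the list deposited for BG4 and BioTASQ in vitro. Of the peaks in clusters of 5 or more, 85.5% (95% Wilson interval 82.8 to 87.9) touched a BioCyTASQ peak, against 55.1% (54.6 to 55.6) of peaks alone. In the other list the shares were 2.87% (1.88 to 4.35) and 20.98% (20.6 to 21.4). The intervals cover counting error only. They count each peak as independent, which peaks of one cluster are not, so they may be too narrow. With clusters of 3 or more, which each chromosome holds in numbers, the BioCyTASQ share was above that of peaks alone on 12 of 12 chromosomes, by 14.3 ± 4.84 percentage points. The other share was lower on 12 of 12, by a mean difference of −10.7 ± 2.37 points. Both differences depended on the overlap rule. Over all chromosomes pooled they were 15.02 and −10.8 points by touching, and −4.58 and −3.07 points at 50% reciprocal overlap, where clusters of 3 or more were below peaks alone in both lists. Among peaks with a −log10 q at or above the median of the list the BioCyTASQ difference by touching was 3.62 points. In 89 of the 129 clusters of 5 or more (69.0%), several members lay on the same BioCyTASQ peak. Both shares also differed with the control level. Of peaks at the lowest control level, 68.7% touched BioCyTASQ, against 48.9% of peaks above it and up to 50 fragments. In the other list these shares were 18.1% and 20.03%. Of peaks in clusters of 5 or more, 77.5% were at the lowest control level, against 36.9% of peaks alone. The part of the control level in the overlap was not tested.

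**Figure D3:**
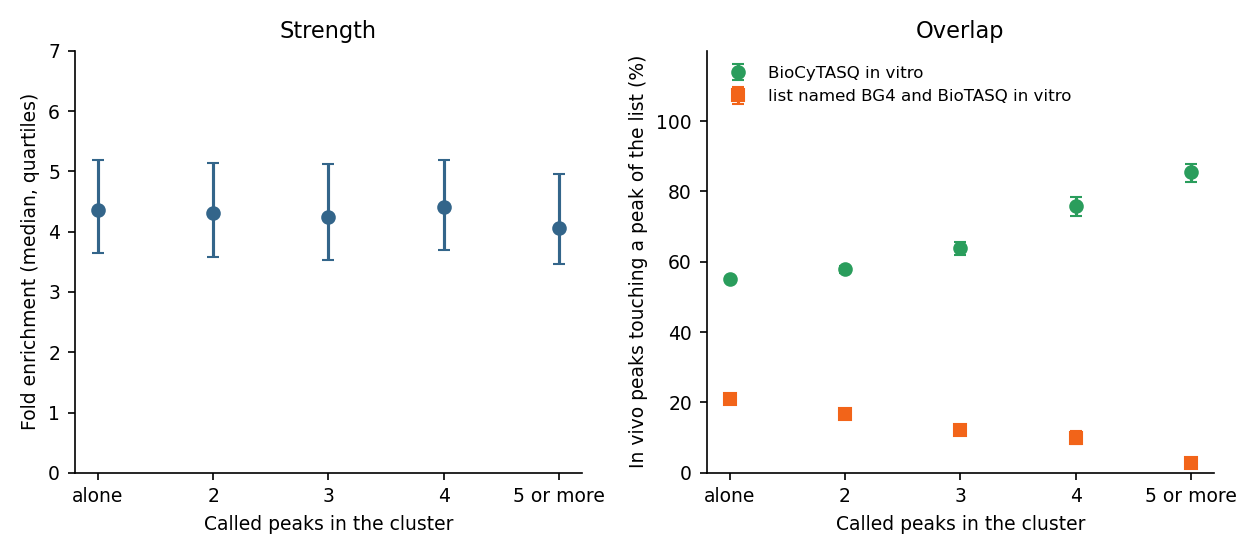
Left, median fold enrichment with quartiles of in vivo peaks alone and in clusters of 2, 3, 4 and 5 or more. Right, the percentage that touched a peak of BioCyTASQ in vitro (circles) or of the list deposited for BG4 and BioTASQ in vitro (squares), with 95% Wilson intervals. The intervals count each peak as independent. The first share was 85.5% in the largest clusters and 55.1% for peaks alone, the second 2.87% and 20.98%.

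The largest cluster held 11 called peaks in 9749 bp, on chromosome 8 at 994562 to 1004310. Its peaks spanned 184 to 873 bp, lay a median of 443 bp apart and had fold enrichments of 2.75 to 6.03. All 11 touched a BioCyTASQ peak. The next, on chromosome 6 at 330844 to 341086, held 10 peaks, 9 of them on BioCyTASQ peaks. Of the 7 clusters of 8 peaks, the 3 named were on chromosome 1, since ties were broken by chromosome number and start. They lay at 9989406 to 10001401, where 7 were on BioCyTASQ peaks, and at 32206126 to 32214252 and 35037111 to 35047866, where all 8 were. None of the peaks in these 5 clusters touched the list deposited for BG4 and BioTASQ in vitro, and the same held for 110 of the 129 clusters of 5 or more. The median control level was at its lowest value, 15.7 fragments, in all 5.

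Called peaks lay on all 12 chromosomes at nearly the same density, 142 ± 5.69 per Mb. Chromosome 4 had the most, 150 per Mb, followed by chromosome 1 with 149 and chromosome 10 with 148. Chromosomes 11 and 12 had the fewest, 133 and 134 per Mb, and chromosome 2 came next with 136. The other 6 lay between 141 and 145 per Mb, and neighbours in this order differed by less than the SD. Among 367 bins of 1 Mb the count was 143 ± 20.04, and 361 bins held 100 to 200 peaks.

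**Figure D4:**
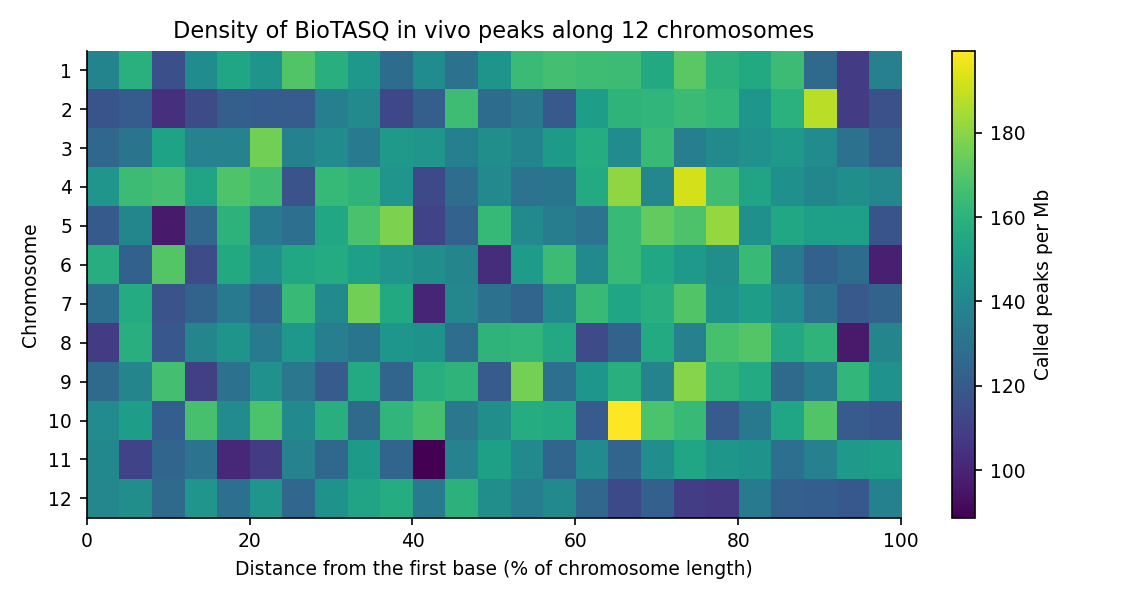
Called BioTASQ in vivo peaks per Mb in 25 equal parts of each of 12 chromosomes, placed by distance from the first base in percent of chromosome length. The darkest part, on chromosome 11 near 40%, holds the longest stretch without a peak, and the brightest lies on chromosome 10.

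The densest 1 Mb bin was on chromosome 10, from 15 to 16 Mb, with 212 peaks, and 35.8% of them had a neighbour within 1 kb. Chromosome 4 from 26 to 27 Mb held 199 and chromosome 5 from 23 to 24 Mb held 193. BioCyTASQ in vitro had 166, 139 and 143 peaks in these bins. Their median fold enrichments, 4.41, 4.27 and 4.50, were near that of the list. The densest 100 kb bin, chosen after the values were seen, was on chromosome 2 at 31800001 to 31900000 and held 37 peaks. Of these, 28 touched a BioCyTASQ peak and 1 the list deposited for BG4 and BioTASQ in vitro, where the shares over all in vivo peaks were 56.9% and 19.3%.

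The sparsest bins were chromosome 11 from 12 to 13 Mb with 76 peaks, chromosome 4 from 15 to 16 Mb with 88 and chromosome 6 from 15 to 16 Mb with 92. Each had a long stretch without peaks, of 391, 137 and 94.5 kb. Their median control levels, 16.96, 16.7 and 16.9 fragments, were above the 15.7 to 16.2 of the densest bins. BioCyTASQ in vitro had 108, 114 and 117 peaks there, more than the in vivo list but fewer than its own mean of 133 per Mb. The list deposited for BG4 and BioTASQ in vitro had 77, 60 and 88, where its mean was 78.9 per Mb. These bins were chosen for their low in vivo counts, which favours higher counts in another list. The lists also have different thresholds, and differences between them were not tested.

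Stretches of over 100 kb without a called peak numbered 16, on 11 chromosomes. The longest, on chromosome 11 at 12164740 to 12555290, was 391 kb, and it began at the end of the peak with the highest control level of the list. No peak number was missing across it. BioCyTASQ in vitro had 3 peaks in it and the list deposited for BG4 and BioTASQ in vitro 4. The next were 174 kb on chromosome 2 (13606810 to 13780320), 163 kb on chromosome 7 (12119505 to 12282888), 158 kb on chromosome 9 (2718787 to 2877005) and 137 kb on chromosome 4 (15581987 to 15719094). None of these 5 stretches, chosen for holding no in vivo peak, was empty in either other list. BioCyTASQ in vitro was sparse in each, with 1 to 4 peaks, where its mean density was 133 per Mb. The list deposited for BG4 and BioTASQ in vitro had 2 to 25 peaks in each, where its mean density was 78.9 per Mb. The stretch on chromosome 9 held 25 peaks of that list and 4 of BioCyTASQ in vitro, and that on chromosome 2 held 11 and 2.

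Called peaks were somewhat sparser at most chromosome ends, by little more than the SD over chromosomes. The first and last 1 Mb together held 128 peaks per Mb, against 142 for whole chromosomes. The ratio per chromosome averaged 0.904 ± 0.0851 and was below 1 on 10 of 12 chromosomes. The lowest was 0.806 on chromosome 2. Chromosomes 11 and 12, the least dense of all, were the exceptions, with 1.09 and 1.04. Single ends differed more: the last 1 Mb of chromosome 6 held 92 peaks, and that of chromosome 11 held 152. Among peaks with a −log10 q at or above the median of the list the ratio was 0.984 ± 0.145 and below 1 on 7 of 12 chromosomes, nearer to 1 than for all peaks. The far end of a chromosome was taken as the last peak end in any list, so distances to it are not given. From the near end, the first in vivo peak began 1.17 to 53.8 kb from the first base, with the longest distance on chromosome 9, where BioCyTASQ in vitro had its first peak at 53.7 kb and the list deposited for BG4 and BioTASQ in vitro at 75.2 kb.

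The numbering of the peaks had gaps. Peak names are numbered along the chromosomes without a break in order, and the highest number was 81699, so 28559 numbers (35.0%) were absent. All but 11 of them could be placed between 2 kept peaks of one chromosome. Across 35406 of the distances between kept peaks (66.6%) no number was absent, and the median distance was then 2607 bp. It was 6679 bp with 1 absent number and 11323 bp with 2. The longest runs were of 10 absent numbers, on chromosome 3 at 10454226 to 10502301, on chromosome 6 at 6214222 to 6249253 and 15499470 to 15580916, and on chromosome 9 at 17515739 to 17550401, and of 9 on chromosome 1 at 35731650 to 35776537. With absent numbers counted as peaks, the density was 219 per Mb.

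Over all chromosomes pooled, absent numbers were most frequent in the last part. Their share was 31.2% between 30 and 40% of chromosome length and 40.04% in the last 10%. In the first 10% it was 35.7%, about that between 70 and 80% of the length (35.6%). In the first and last 10% together it was 37.5 ± 2.84%, against 32.5 ± 1.80% between 40 and 60%, and both ends together were higher on 12 of 12 chromosomes. Taken alone, the last 10% was above that middle on 11 chromosomes and the first 10% on 10. The first 10% had 28.0% on chromosome 4 and 27.5% on chromosome 9, against 31.6% and 32.9% in the middle of these chromosomes. On chromosomes 3, 11 and 12 the first 10% was instead above the last: 43.8% against 41.7%, 36.6% against 33.1% and 35.7% against 34.8%. Over whole chromosomes the absent share ran from 32.1% on chromosome 12 to 39.1% on chromosome 3. Kept peaks beside absent numbers were about as strong as those between kept numbers, with median fold enrichments of 4.33 (29262 peaks) and 4.36 (23878 peaks). With absent numbers spread evenly between their kept neighbours, the ratio of the ends to whole chromosomes was 0.951 ± 0.0729. The sources used here do not say why these numbers are absent, nor why some peaks came in pieces. The caller's first list may therefore have held more or longer peaks, and counts, spans and distances given here are those of the deposited rows.

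**Figure D5:**
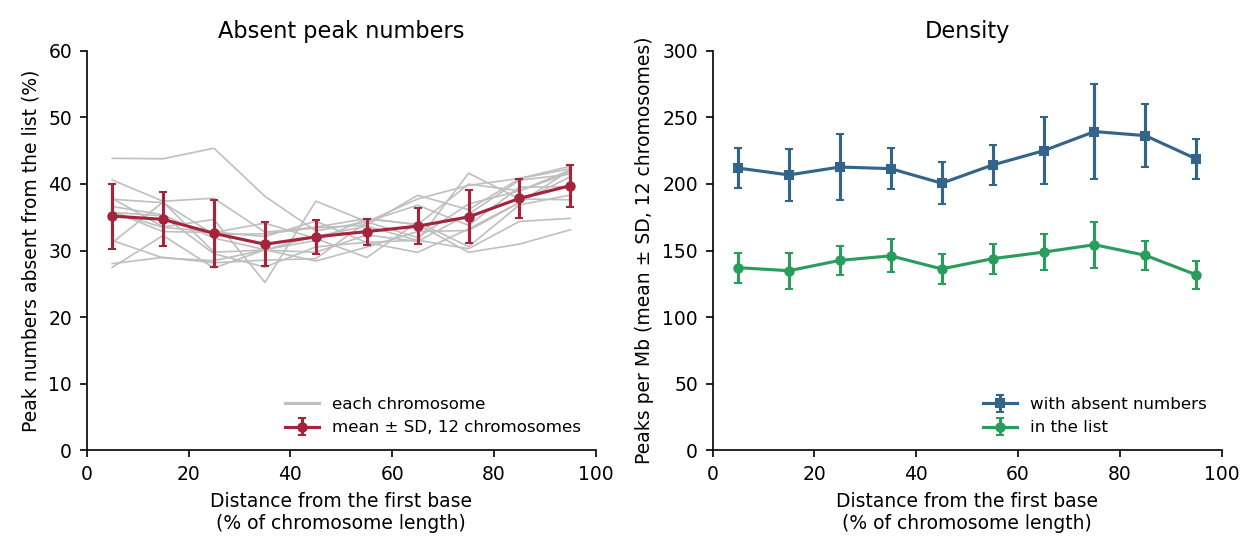
Left, the percentage of peak numbers absent from the list along 10 equal parts of chromosome length, for each of 12 chromosomes (grey) and as mean ± SD (red). Right, peaks per Mb in the list and with absent numbers added, mean ± SD over 12 chromosomes. Over all chromosomes, absent numbers made up 31.2% between 30 and 40% of the length and 40.04% in the last 10%.

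Overlap with the other lists varied along the chromosomes too. The share of in vivo peaks on the list deposited for BG4 and BioTASQ in vitro was 25.2% between 40 and 50% of chromosome length and 14.3% in the last 10%. For BioCyTASQ in vitro it was 62.8% between 30 and 40% and 50.8% in the last 10%. The density of the lists varied along the chromosomes as well. The ratio of the ends to whole chromosomes was 0.781 for BioCyTASQ in vitro, 0.932 for the other list and 0.904 in vivo. The part of list density in these shares was not tested. By the same measures, the median distance was 4062 bp in the in vivo list, 3388 bp for BioCyTASQ in vitro and 7469 bp for the other list, and the shares with a neighbour within 1 kb were 27.7%, 44.6% and 25.5%. The variance of 100 kb counts was 1.60, 2.85 and 1.70 times the mean, in the same order. The lists differ in their lowest −log10 q (3.01, 1.31 and 3.0) and in the share of absent numbers (35.0%, 4.86% and 0.645%), so these values are set side by side with no test.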

How the data were processed

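The submitters' processing notes name MACS2 2.1.1, SAMtools 1.5, Trim Galore 0.4.4, Picard and BWA. How the replicates were pooled, the threshold, the control library and the genome build are not stated there, though the peak names carry the word biotin. The list deposited by the authors has 10 columns and no header. The deposited fold enrichment is a ratio of the peak to its control, the deposited −log10 p and −log10 q are the caller's own, and the deposited score follows −log10 q. The deposited summit was used as a position only in 1 alternative for spacing. The list named BG4 and the list named BioTASQ in vitro differed in 0 rows and were used once.

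Rows of one name were joined. Pileup and control were solved from fold enrichment, (pileup + 1) / (control + 1), and the Poisson tail beyond the pileup, to within 0.001 on the −log10 p scale. Chromosome length was the largest peak end of any list. Clusters were chains of peaks at most 1 kb apart, overlap was at least 1 bp between spans, and absent numbers were spread evenly between kept neighbours. Positions in bins are midpoints. Read depth per library is unknown here. No test was made, since there is 1 list for the 2 capture libraries.

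Named regions were the 5 strongest and 5 longest peaks, 5 largest clusters, 5 longest distances, 3 densest and 3 sparsest 1 Mb bins and 5 longest runs of absent numbers, at most 1 of a kind per 100 kb. Ties were broken by chromosome number and start. Members, measures and these rules were chosen with earlier results of these data known. Steps were tested on simulated data. The simulated pileups did not reach down to the median of the list, 75 fragments, nor up to its highest pileups and control levels. The planned gene positions and G-quadruplex motif were not analysed here. Computation used SciPy 1.17.1, NumPy 2.4.6, Matplotlib 3.10.9 and pandas 2.3.3 under Python 3.11.15.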

Additional observations from a re-analysis of the deposited data

How the results depend on the processing

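Span, spacing and clustering moved with how a peak was defined. With each row as a peak of its own, the median span was 342 bp, the median distance 3580 bp, the share with a neighbour within 1 kb 37.6% and the variance over the mean of 100 kb counts 1.90. With −log10 q at or above the median, 26574 peaks were left, with 517 bp, 7860 bp and 14.3%. Between summits that lay inside their span the median distance was 5240 bp. This was measured from point to point, not between edges, and without the 7932 peaks whose summit lay outside the span. The share with a neighbour was 10.7% within 0.5 kb and 79.8% within 5 kb. Variance over mean was 1.05 for 10 kb and 2.81 for 1 Mb bins. The median fold enrichment of peaks with a neighbour minus that of peaks without was −0.0597 at 1 kb and 0.115 at 5 kb. At 50% reciprocal overlap 37.5% of in vivo peaks were on BioCyTASQ in vitro (56.9% when touching) and 6.03% on the list deposited for BG4 and BioTASQ in vitro (19.3%). The differences of clusters of 3 or more from peaks alone were then −4.58 and −3.07 points, against 15.02 and −10.8, and that for BioCyTASQ was 3.62 with −log10 q at or above the median. These differences of −4.58, −3.07 and 3.62 points, and the ends with absent numbers added, were alternatives chosen after seeing the data. The ratio of the ends to whole chromosomes was 0.930 and 0.928 for ends of 0.5 and 2 Mb and 0.951 with absent numbers. With −log10 q at or above the median it was 0.984, and below 1 on 7 of 12 chromosomes, against 10 in the whole list. Each ratio lay within 1 SD over chromosomes of the 0.904 reported, though that SD does not measure how stable the ratio is. Variance over mean in 100 kb bins was 1.51 with −log10 q at or above the median and 1.69 with absent numbers, each within 1 SD over chromosomes of the 1.60 reported. The causes were not tested. No paired analysis was possible because the list is not split by replicate, and for the same reason no replicate could be left out. The alternatives for gene positions and the G-quadruplex motif were not run. The depth of single libraries is unknown, so weaker sites may have been left uncalled.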
